A study of Mus musculus with 20 samples.

Results

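Untreated macrophages lacking both MyD88 and TRIF (double-KO) were set against untreated macrophages lacking MyD88 alone (MyD88-KO), each at 4, 8 and 16 h in culture. These are 6 of the 20 two-colour arrays of the series, 3 per genotype, chosen by genotype, time point and dye label and not by any measured value. The labels give double-KO as MyD88/Trif -/- double KO and MyD88-KO as MyD88 -/- KO, both on C57BL/6. By these labels all 6 samples share the loss of MyD88 and the groups differ in TRIF. The groups also differed in sex by their X- and Y-linked transcripts, as given below. The cells were macrophages grown from bone marrow for 6 days in M-CSF-conditioned medium of L929 cells, replated and kept in serum-free medium without LPS. On each array this untreated RNA was labelled with Cy3, and the Cy5 channel held RNA of cells of the same genotype given 200 ng/mL LPS. Arrays of wild type cells (5) and of cells labelled TRIF -/- KO (5), from untreated C57BL/6 cells cultured alike for 1 to 16 h, are used only for levels set beside these groups. The comparison asks what the added loss of TRIF does to resting cells in which MyD88 is already missing. Ages of the mice and the number of animals are not given in the labels, and nothing says that the samples came from separate animals or cultures. The p-values thus rest on the spread among these 6 samples, which may be technical, and with 1 array per time point that spread includes the time points.

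Toll-like receptors pass their signals into the cell through adapter proteins, chief among them MyD88 and TRIF, the product of Ticam1. MyD88 serves most of these receptors and the receptors of the interleukin-1 family, and leads to NF-kB. TRIF serves Tlr3 and the endosomal signal of Tlr4 and leads, through the kinase Tbk1 and the factor Irf3, to interferon beta, and also feeds NF-kB. Resting macrophages can hold transcripts of genes of both programmes, among them chemokines, interferon-stimulated genes and guanylate-binding proteins.

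Levels are normalized log2 Cy3 intensities, and a difference is always double-KO minus MyD88-KO on that log2 scale with its standard error. Between 58.0% and 66.8% of spots were well above background on the 6 arrays, no Cy3 spot was saturated, and the precision is limited by the number of arrays. X- and Y-linked genes were left out because the sexes of the groups differed, whereas the labels describe matched animals. Sex and genotype thus cannot be told apart in the autosomal genes that remain, and the part of sex was not tested. The Y-linked Eif2s3y read 13.90 to 14.23 in double-KO and 6.49 to 6.64 in MyD88-KO, and Xist, the RNA that coats the inactive X, read 6.28 to 6.57 in double-KO and 10.08 to 10.41 in MyD88-KO. Arrays lie 4 to a slide, and the 3 double-KO arrays lay on the fifth slide with the double-KO array of 2 h, whereas the 3 MyD88-KO arrays lay on the fourth slide with the double-KO array of 1 h. All 8 were scanned on the same day. The MyD88-KO array of 1 h lay on the third slide and was scanned on another day. Slide and genotype therefore cannot be told apart in the comparison of 3 against 3. The one comparison inside a slide sets the single double-KO array of 1 h against the MyD88-KO arrays of 4, 8 and 16 h. It is given beside the lists and the genes described in full, it also differs in culture time, and it assumes that the lone array varies like the others. Its 3 MyD88-KO arrays are those of the comparison of 3 against 3, so agreement in direction between the 2 comparisons is partly built in.

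The targeted gene was read first. The Ticam1 probe lies on chromosome 17 from 56409265 to 56409324 (mm9, minus strand). It read 7.29, 7.26 and 7.35 at 4, 8 and 16 h in double-KO, against 10.60, 10.41 and 10.38 in MyD88-KO. The groups were far apart, at -3.16 ± 0.10 (adjusted p = 5.1e-05), and the double-KO array of 1 h read 7.23. The median was 10.62 in wild-type and 10.85 in the arrays labelled TRIF-KO. The probe thus does not show the loss of TRIF in those arrays, and their label is taken as given. The Myd88 probe (chromosome 9, 119245322 to 119245381) read 13.97, 14.22 and 13.88 in double-KO and 14.09, 14.21 and 13.90 in MyD88-KO, and the groups overlapped. It was bright in both groups, with a wild-type median of 14.43, so it does not show the loss of MyD88, and that part of both labels is taken as given. The receptor gene Tlr4 read 13.35, 13.43 and 13.46 in double-KO and 13.54, 13.82 and 13.96 in MyD88-KO, lower at each time. It differed by -0.36 ± 0.13 and did not pass the test (adjusted p = 0.13), but it did with the time point as a block (adjusted p = 0.035).

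The sequences of probes that carry the main results follow, read 5′ to 3′ from the deposited array files, with runs of alternating G and T of at least 4 bases in capitals. The first 4 are those of the targeted genes and of the genes with the largest difference in each direction.
Ticam1: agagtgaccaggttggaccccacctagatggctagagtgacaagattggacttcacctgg
Myd88: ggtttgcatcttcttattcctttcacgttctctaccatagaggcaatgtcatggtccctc
Gdf3: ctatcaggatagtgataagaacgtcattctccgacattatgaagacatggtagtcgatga
Ctse: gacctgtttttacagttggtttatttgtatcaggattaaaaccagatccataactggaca
The next 5 belong to genes among the 14 largest higher differences whose probes are rich in G and T runs, and they are taken up below.
Mthfsd: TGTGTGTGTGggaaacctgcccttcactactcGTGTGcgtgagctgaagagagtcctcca
Oas1d: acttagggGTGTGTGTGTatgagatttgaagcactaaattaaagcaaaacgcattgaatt
Elavl4: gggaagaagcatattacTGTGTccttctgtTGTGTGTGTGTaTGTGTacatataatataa
Nwd2: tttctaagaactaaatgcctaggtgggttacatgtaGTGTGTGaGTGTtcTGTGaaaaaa
Cd300a: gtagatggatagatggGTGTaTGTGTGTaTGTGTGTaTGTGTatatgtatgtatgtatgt
The mm9 positions are chr6:122556340-122556399 (minus strand) for Gdf3, chr1:133571990-133572049 for Ctse, chr8:123622781-123622840 (minus strand) for Mthfsd and chr5:121371595-121371654 for Oas1d. They are chr4:109877455-109877514 (minus strand) for Elavl4, chr5:64201445-64201504 for Nwd2 and chr11:114765539-114765598 for Cd300a. No mm9 annotation was used here, so the place of a probe within exons is not given.

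Of 18328 autosomal or unplaced genes tested, 1114 (6.08%) were higher and 702 (3.83%) lower in double-KO at an adjusted p under 0.05. Other kept probes existed for 235 of the higher genes, and 98 of these had a probe of opposite sign. Among the lower genes this held for 38 of 180. By at least 1 log2 unit, 408 were higher and 202 lower, and by at least 2 units, 55 were higher and 53 lower. The median difference over all genes was 0 and the median absolute difference 0.19. Without any overlap of the 6 values between the groups, 3089 genes read higher and 2761 lower, so separate groups were common. Separation was also a condition for the 14 largest genes in each direction, so it says nothing further about them. With the time point as a block, 2641 genes were higher and 2188 lower, and the block counts of lists given below stand against these totals. Inside the fourth slide, 57 genes (0.311%) were higher and 77 (0.42%) lower of 18323 tested, of which 37 and 62 were also called in the same direction at matched times. Of the 1114 higher genes 716 (64.3%) also read higher there, against 632 (90%) of the 702 lower genes that also read lower. The MyD88-KO arrays are the same in both comparisons, so these shares and the shared calls are no independent check. Leaving out the MyD88-KO array of 8 h reduced the counts to 380 higher and 171 lower, and leaving out the double-KO array of 8 h to 442 and 202. Without the MyD88-KO array of 16 h they were 690 and 411, and without the double-KO array of 4 h 772 and 384.

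**Figure D1:**
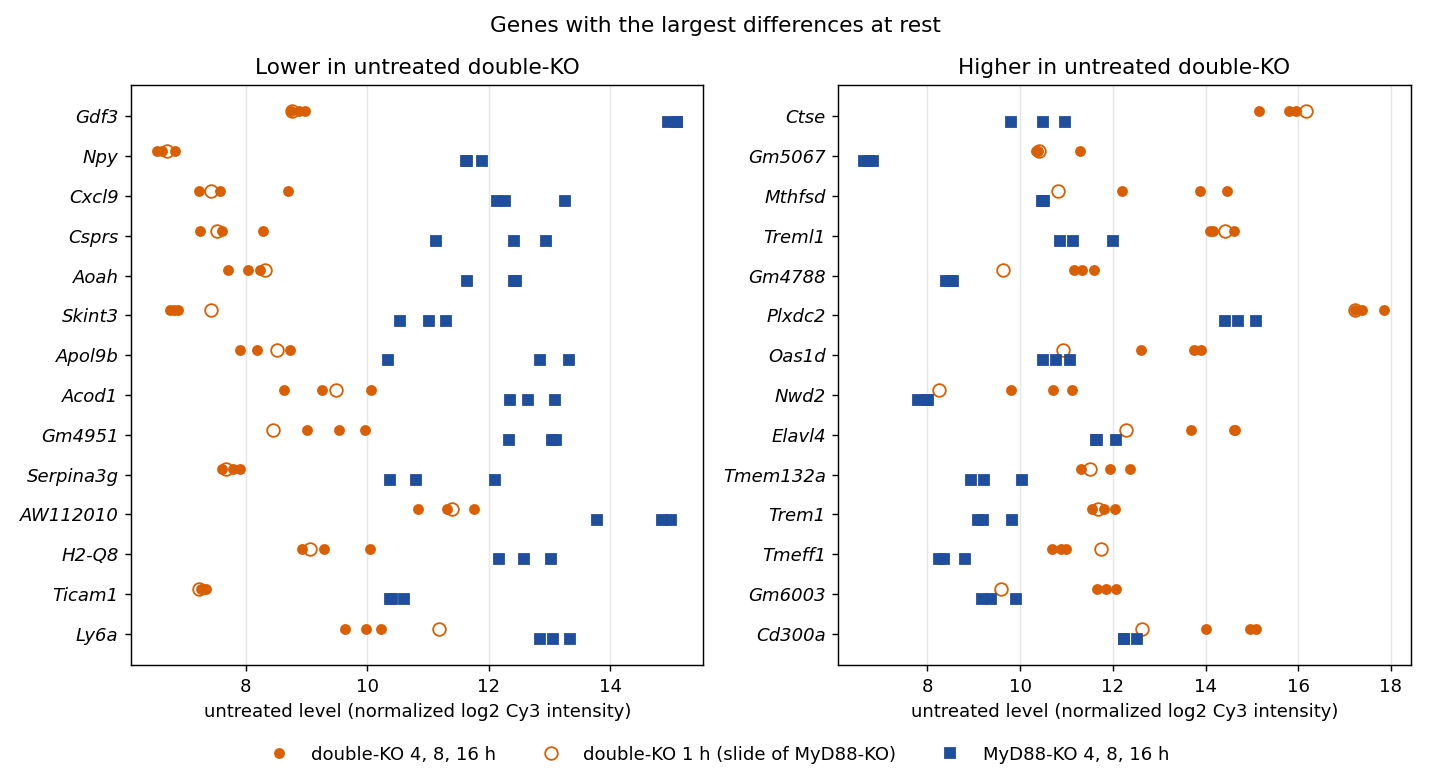
Untreated levels (x axis, normalized log2 Cy3 intensity) of the 14 genes with the largest lower and the 14 with the largest higher differences, chosen by these values. Filled circles are double-KO at 4, 8 and 16 h, open circles double-KO at 1 h on the slide of the MyD88-KO arrays, and squares MyD88-KO at 4, 8 and 16 h. The open circles lie beyond the MyD88-KO squares on the double-KO side for the lower genes, but near the squares for Mthfsd, Oas1d, Nwd2, Elavl4, Gm6003 and Cd300a among the higher ones.

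The largest lower values belonged to genes of several kinds. Gdf3, which encodes a growth factor of the TGF-beta family, read 8.74, 8.98 and 8.87 at 4, 8 and 16 h in double-KO, against 14.95, 15.10 and 15.11 in MyD88-KO. It was 73.3-fold lower (-6.19 ± 0.10, adjusted p = 3.1e-06), and a second probe differed by -5.21. Its median was 13.17 in wild-type and 11.23 in the arrays labelled TRIF-KO, so double-KO stood below each other genotype and MyD88-KO above. Npy, the gene of neuropeptide Y, read 6.83, 6.61 and 6.54 in double-KO, not well above background on any of the 3 arrays, against 11.62, 11.65 and 11.89 in MyD88-KO. It was at least 27.8-fold lower (adjusted p = 1.4e-05). Such a bound sets the mean of the bright group against, per array, the higher of the dim probe's own value and the lowest signal well above background. Skint3, a butyrophilin-like gene, read 6.75, 6.81 and 6.88 in double-KO and 10.54, 11.01 and 11.29 in MyD88-KO, and was at least 15.9-fold lower by the same bound (adjusted p = 0.00029). Inside the fourth slide the differences were -6.30 for Gdf3, -5.02 for Npy and -3.51 for Skint3.

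Most of the others read higher in the LPS-treated RNA of the MyD88-KO arrays. Cxcl9 (chr5:92752191-92752250, mm9), a chemokine induced by interferon gamma that attracts T cells, read 7.23, 7.58 and 8.69 in double-KO, against 12.13, 13.26 and 12.27 in MyD88-KO. It differed by -4.72 ± 0.44 (adjusted p = 0.0022), with -5.14 inside the fourth slide and -2.79 on a second probe. Acod1 (chr14:103455171-103455231), whose enzyme makes itaconate, read 8.63, 9.26 and 10.06 in double-KO and 13.10, 12.65 and 12.35 in MyD88-KO, and was 10.4-fold lower (adjusted p = 0.0033), with -3.22 inside the fourth slide. For both genes the highest double-KO value was that of 16 h. Aoah, which encodes acyloxyacyl hydrolase, the enzyme that removes fatty acyl chains from LPS, differed by -4.17 ± 0.25, by -3.86 inside the fourth slide and by -2.76 on a second probe, which was above background on 2 of the 3 arrays of double-KO. Further down stood Csprs (-4.46), Apol9b (-3.90), Gm4951 (-3.33), Serpina3g (-3.33), AW112010 (-3.25), H2-Q8 (-3.18) and Ly6a (-3.14), with adjusted p between 0.00066 and 0.022. Csprs, Apol9b, Serpina3g and H2-Q8 belong to families with close copies, and their probes may read relatives. A second probe for Csprs differed by -0.48. Each of the 14 lower genes read lower by more than 1 log2 unit inside the fourth slide. Each also read lower in double-KO when the arrays of 1 h, on different slides, were set side by side.

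The LPS-treated RNA on the same arrays is given beside these values, because both channels were normalized together. Of the 14 genes, 10 had a mean log2 ratio of LPS over untreated of 1.61 to 5.94 on the 3 MyD88-KO arrays, among them Acod1 at 5.94 and Cxcl9 at 4.65. The other 4 were Gdf3 (-0.01), Npy (0.47), Ticam1 (0.10) and Skint3 (-2.86). On the 3 double-KO arrays all 14 ratios lay between -0.27 and 0.14. These ratios hold the same Cy3 values by which the 14 genes were chosen. The share of all genes with such ratios on the MyD88-KO arrays is not given here, so no excess is drawn from the count of 10. A raised ratio in MyD88-KO was not always raised elsewhere: that of Ly6a was 0.76, 2.81 and 3.12 at 4, 8 and 16 h in MyD88-KO and lay between -0.26 and 0.27 in wild-type. Whether a bright LPS channel moves the untreated reading of the same spot was not tested. At 1 h, when the Cxcl9 ratio was 0.00 in MyD88-KO and 0.01 in double-KO, its untreated level was 7.42 in double-KO and 8.23 in MyD88-KO. Acod1 at 1 h read 9.48 in double-KO and 12.81 in MyD88-KO, with ratios of 0.09 and 1.17.

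**Figure D2:**
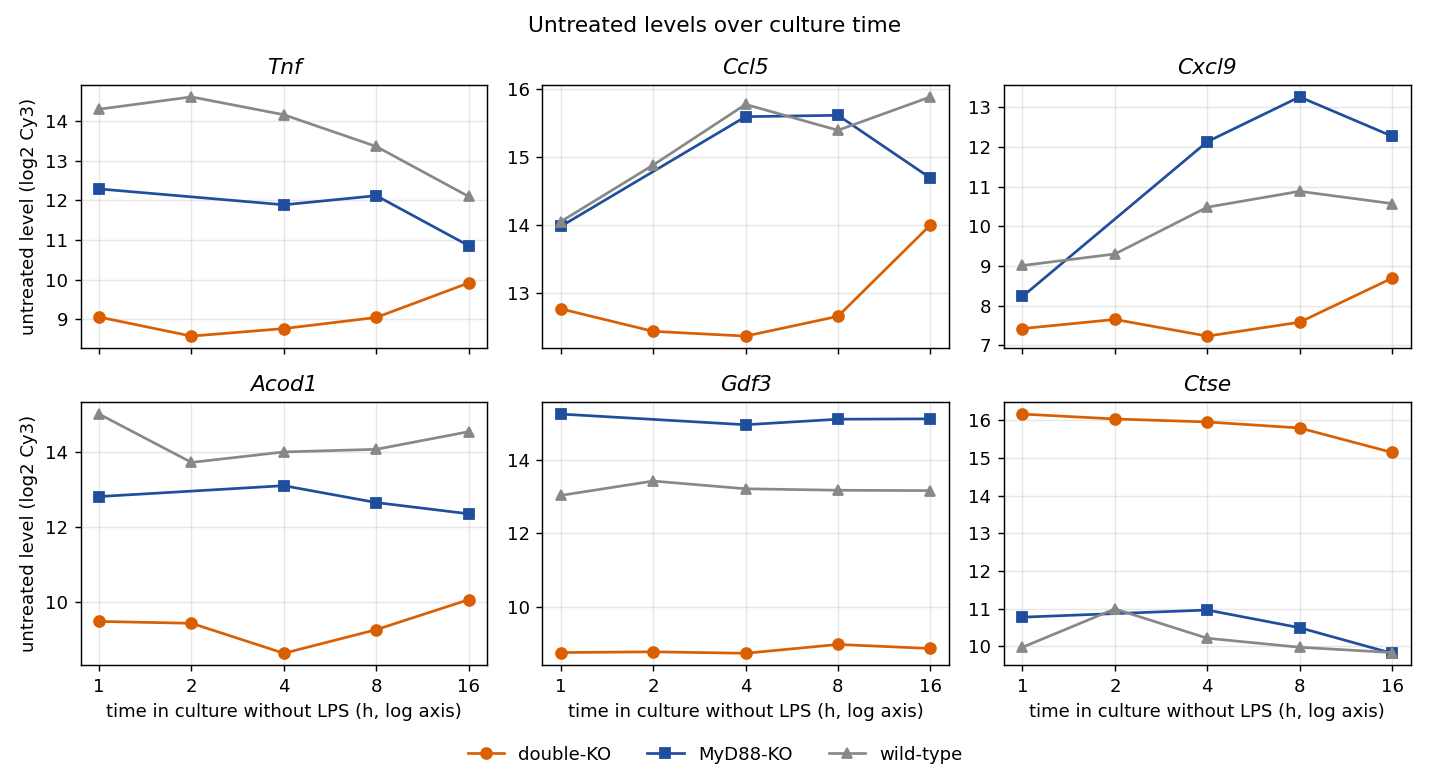
Untreated levels (y axis, normalized log2 Cy3 intensity) of 6 genes against culture time (x axis, log scale, 1 to 16 h), 1 array per point, with double-KO as circles, MyD88-KO as squares and wild-type as triangles. Tnf, Ccl5, Cxcl9 and Acod1 were lowest in double-KO at each time at which both mutants were measured, Gdf3 was flat and apart in each genotype, and Ctse was high in double-KO only among the 3 genotypes drawn.

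Over all genes the resting difference was set against the LPS response of wild-type cells, measured on 3 arrays outside the comparison at 4, 8 and 16 h. This grouping was chosen after the named genes had been seen. Of 260 genes with a wild-type log2 ratio of at least 2, 11 (4.23%) were higher and 51 (19.6%) lower in untreated double-KO, and 176 (67.7%) had a value below 0. Their median difference was -0.27, with -0.22 inside the fourth slide. Of 127 genes that LPS lowered by at least 2 log2 units in wild-type, 14 (11%) were higher and 2 (1.57%) lower, with a median of 0.26, and of 0.09 inside the fourth slide. The 16124 genes within 1 log2 unit had 917 (5.69%) higher and 525 (3.26%) lower and a median of 0. Between these classes, 98 (11.9%) were higher and 86 (10.4%) lower of 826 genes that LPS raised by 1 to 2 units, and 71 (7.36%) higher and 37 (3.83%) lower of 965 that it lowered by 1 to 2 units. Genes moved by at least 2 units thus held more calls against the direction of the LPS response than along it.

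Among chemokines, the attractants of leukocytes, 7 of the 18 tested were lower and 0 higher, and the median was -0.58. The block gave 12 lower and 1 higher. Ccl5 (chr11:83339296-83339355), which attracts T cells and monocytes, read 12.37, 12.66 and 14 in double-KO, against 15.59, 15.61 and 14.69 in MyD88-KO. The groups did not overlap (-2.29 ± 0.46, adjusted p = 0.026, -2.53 inside the fourth slide), and they came closest at 16 h. Ccl8, a ligand of several CC receptors, read 7.27, 7.22 and 7.47 in double-KO and 9.15, 10.71 and 10.64 in MyD88-KO (-2.85 ± 0.40, adjusted p = 0.0079, -2.60 inside the fourth slide). On the arrays of 1 h, on different slides, Ccl8 read 7.56 in double-KO and 8.47 in MyD88-KO. Ccl2, the main attractant of Ccr2-bearing monocytes, differed by -2.46 ± 0.31 (adjusted p = 0.0054), but by 0.38 inside the fourth slide. The double-KO array of 1 h read 12.15, and the MyD88-KO array of 1 h, on the third slide, 13.82. The median of the 18 chemokines inside the fourth slide, where culture times differ, was -0.01, and 9 of them read lower there.

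Inflammatory cytokines gave 3 lower and 1 higher of 15 tested, with a median of -0.44 and of -0.68 inside the fourth slide. The block gave 7 lower and 1 higher. Tnf (chr17:35336795-35336854), the founding cytokine of its family, read 8.77, 9.05 and 9.92 in double-KO, against 11.89, 12.12 and 10.86 in MyD88-KO and a median of 14.16 in wild-type. It was 5.2-fold lower than in MyD88-KO (-2.38 ± 0.41, adjusted p = 0.016, -2.57 inside the fourth slide), with the groups apart but closest at 16 h. Csf1, the growth factor of macrophages, read 8.15, 8.31 and 8.69 in double-KO and 10.55, 10.62 and 9.98 in MyD88-KO, and all 3 of its probes read lower (the others by -1.09 and -0.96). Csf1 differed by -1.72 inside the fourth slide. Ifnb1, interferon beta, read 7.71, 7.86 and 7.86 in double-KO and 8.73, 8.90 and 8.31 in MyD88-KO (-0.83 ± 0.16, adjusted p = 0.024, -1.79 inside the fourth slide). With the arrays of 1 h side by side, on different slides, Ifnb1 read 6.86 in double-KO and 7.25 in MyD88-KO. The value inside the slide thus holds culture time too. Its LPS ratio on the MyD88-KO arrays was 5.94. Il18, an interleukin-1 relative kept as a stored precursor, was the higher one (0.69 ± 0.14, adjusted p = 0.027), and it read 1.23 higher inside the fourth slide.

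Of 39 interferon-stimulated genes tested, 2 were lower and 1 higher, no larger a share than the 9.91% of all genes past the test. A value below 0 was found for 25, and the median was -0.36. Inside the fourth slide 33 of the 39 read lower and the median was -0.62. With the time point as a block, 19 were lower and 3 higher, against 2188 lower and 2641 higher of all 18328 genes. Oasl1, a relative of the oligoadenylate synthetases, read 12.44, 13.31 and 14.08 in double-KO and 15.22, 15.24 and 15.03 in MyD88-KO (-1.89 ± 0.38, adjusted p = 0.026, -1.77 inside the fourth slide). Cmpk2, a mitochondrial nucleotide kinase, differed by -1.22 ± 0.28 (adjusted p = 0.043), by -1.67 inside the fourth slide and by -3.86 on its second probe. Cxcl10, the interferon-induced chemokine, was the higher one on its brighter probe, at 13.68, 14.87 and 14.34 in double-KO and 11.71, 12.01 and 12.44 in MyD88-KO. Its dimmer probe read 7.17, 7.67 and 7.54 in double-KO and 11.86, 11.18 and 10.08 in MyD88-KO. The probes thus gave 2.25 and -3.58, and no direction is drawn for Cxcl10. Its brighter probe had a mean LPS ratio of 6.62 on the MyD88-KO arrays.

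Guanylate-binding proteins and immunity-related GTPases, which attack vacuoles that hold pathogens, gave 5 lower and 1 higher of 13, with 11 values below 0. Their median was -0.53, and -0.84 inside the fourth slide, where 12 read lower. Gbp2 read 12.20, 13.02 and 13.29 in double-KO and 14.32, 15.02 and 14.22 in MyD88-KO (-1.68 ± 0.33, adjusted p = 0.024, -2.17 inside the fourth slide). On the arrays of 1 h, on different slides, Gbp2 read 12.35 in double-KO and 13.16 in MyD88-KO. Gbp4 differed by -1.57 ± 0.23 and Irgm2 by -1.33 ± 0.24, with -1.28 and -2.17 inside the slide. Gbp3 went the other way, at 1.06 ± 0.19 (0.83 inside the slide), and had an LPS ratio of 4.87 on the MyD88-KO arrays. In MHC class I processing 4 of 16 were lower and 1 higher, with a median of -0.07, and of -0.16 inside the fourth slide. The lower ones included Tap1, the peptide transporter (-1.28), Nlrc5, the transactivator of class I genes (-1.11), and Psmb9, an immunoproteasome subunit (-0.98). Nlrc5 had a second probe at 0.10. Psme2, a proteasome activator, was higher by 1.17 on its brightest probe, whereas its other 2 probes differed by -0.47 and -0.56.

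NF-kB feedback and immediate early genes gave 6 lower and 1 higher of 25, with 20 below 0 and a median of -0.34, and of -0.43 inside the fourth slide. The block gave 11 lower and 1 higher. Nfkb2, which encodes the p100 subunit precursor, read 10.57, 10.80 and 11.25 in double-KO and 12.30, 12.27 and 12.20 in MyD88-KO (-1.39 ± 0.18, adjusted p = 0.0054, -1.76 inside the fourth slide). Nfkbie, an inhibitor of NF-kB, differed by -1.42 ± 0.32, and Dusp2, a phosphatase of MAP kinases, by -1.47 ± 0.30. Nfkb1 was higher by 1.27 on a probe of 21.7% GC, against -0.07 inside the fourth slide and 0.10 on its other probe, and no direction is drawn for it. Among Toll-like receptors, adapters and kinases, 3 of 23 were lower and 0 higher (8 and 0 with the block): Ikbke, a kinase related to Tbk1 (-1.05), Cd14, the LPS co-receptor (-0.79), and Tlr1 (-0.71). Cd14 differed by -0.20 inside the fourth slide.

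Some genes known as regulators or effectors outside inflammation were also examined by list. Complement genes and receptors had the lowest list median, -0.78 (-0.84 inside the fourth slide), with 3 lower and 1 higher of 14, and 8 lower with the time point as a block. The lower ones were Serping1, an inhibitor of the classical pathway (-1.11, above background on 2 of the 3 arrays of double-KO), C2 (-0.94) and Cd59a (-0.91). Lysosomal hydrolases and proton pump subunits gave 5 lower and 0 higher of 26, with 22 below 0 and a median of -0.20, and of -0.21 inside the fourth slide. With the block 10 were lower. These differences were small, among them -0.84 for Tcirg1, a proton pump subunit, and -0.63 for Ctsd, cathepsin D. Sterol biosynthesis (21 genes), LXR and PPAR targets (21) and glycolysis and hypoxia genes (21) had 0 members past the test in either direction. With the time point as a block, 0 sterol genes were called, and the other 2 lists had 3 higher and 6 lower, and 2 higher and 2 lower. Oxidative phosphorylation had 1 higher and 0 lower of 26, and cytosolic ribosomal proteins 0 higher and 1 lower of 30, Rpl3, at -0.49. With the block these were 4 higher and 3 lower, and 1 higher and 3 lower.

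The remaining lists are set against the 9.91% of all genes past the test. The MHC class II, chemokine receptor, matrix protease, Fc receptor, iron, osteoclast and arginine lists held larger shares, the stress list a like one, and the Nrf2, heat shock and lineage factor lists smaller ones. MHC class II presentation had 1 higher and 1 lower of 11, H2-Ob (1.38) and H2-Oa (-0.89), chains of the peptide-loading inhibitor, which read 0.06 and -0.07 inside the fourth slide. H2-Oa was above background on 2 of the 3 arrays of double-KO. The chemokine receptors had 3 higher and 2 lower of 9, including Ccr2 (1.57 ± 0.32), Ccr3 (1.22) and Ccrl2 (-2.25), which read 1.64, 0.22 and -1.45 inside the fourth slide. Matrix proteases and the plasminogen system had 0 higher and 3 lower of 19, and Fc, scavenger and lectin receptors 2 higher and 1 lower of 24. With levels centred within classes of probe GC content, as described below, the Fc list had 0 calls and the matrix protease list 2 lower. Iron and metal handling had 2 lower of 13, Lcn2 (-1.21) and Cp (-0.96, above background on 2 of the 3 arrays of double-KO), and the osteoclast list 2 lower of 13, Trem2 (-0.80) and Tyrobp (-0.40). The unfolded protein and stress list had 2 lower of 20, Phgdh (-1.11) and Ddit3 (-1.05), with -2.12 and -0.73 inside the slide. The Nrf2 list had 1 lower of 19, Sqstm1 (-0.77), and the heat shock list 1 lower of 14, Hspa1a (-1.98). Of 21 lineage transcription factors 1 was lower, Spi1, which encodes PU.1 (-0.49). Arginine, nitric oxide, itaconate and prostaglandin enzymes had 1 higher, Hpgd (1.74), which breaks down prostaglandins, and 2 lower of 17, Acod1 and Chil3 (-0.86). With the time point as a block more genes passed, 2641 higher and 2188 lower of 18328 tested, so the 9.91% does not apply there. The higher and lower block calls were 2 and 4 for MHC class II and 3 and 5 for matrix proteases. These calls were 4 and 3 for Fc receptors and 1 and 4 for iron. They were 2 and 5 for the osteoclast list, 3 and 5 for the stress list, 0 and 4 for the Nrf2 list, 0 and 2 for heat shock, 1 and 4 for lineage factors and 3 and 4 for the arginine list.

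**Figure D3:**
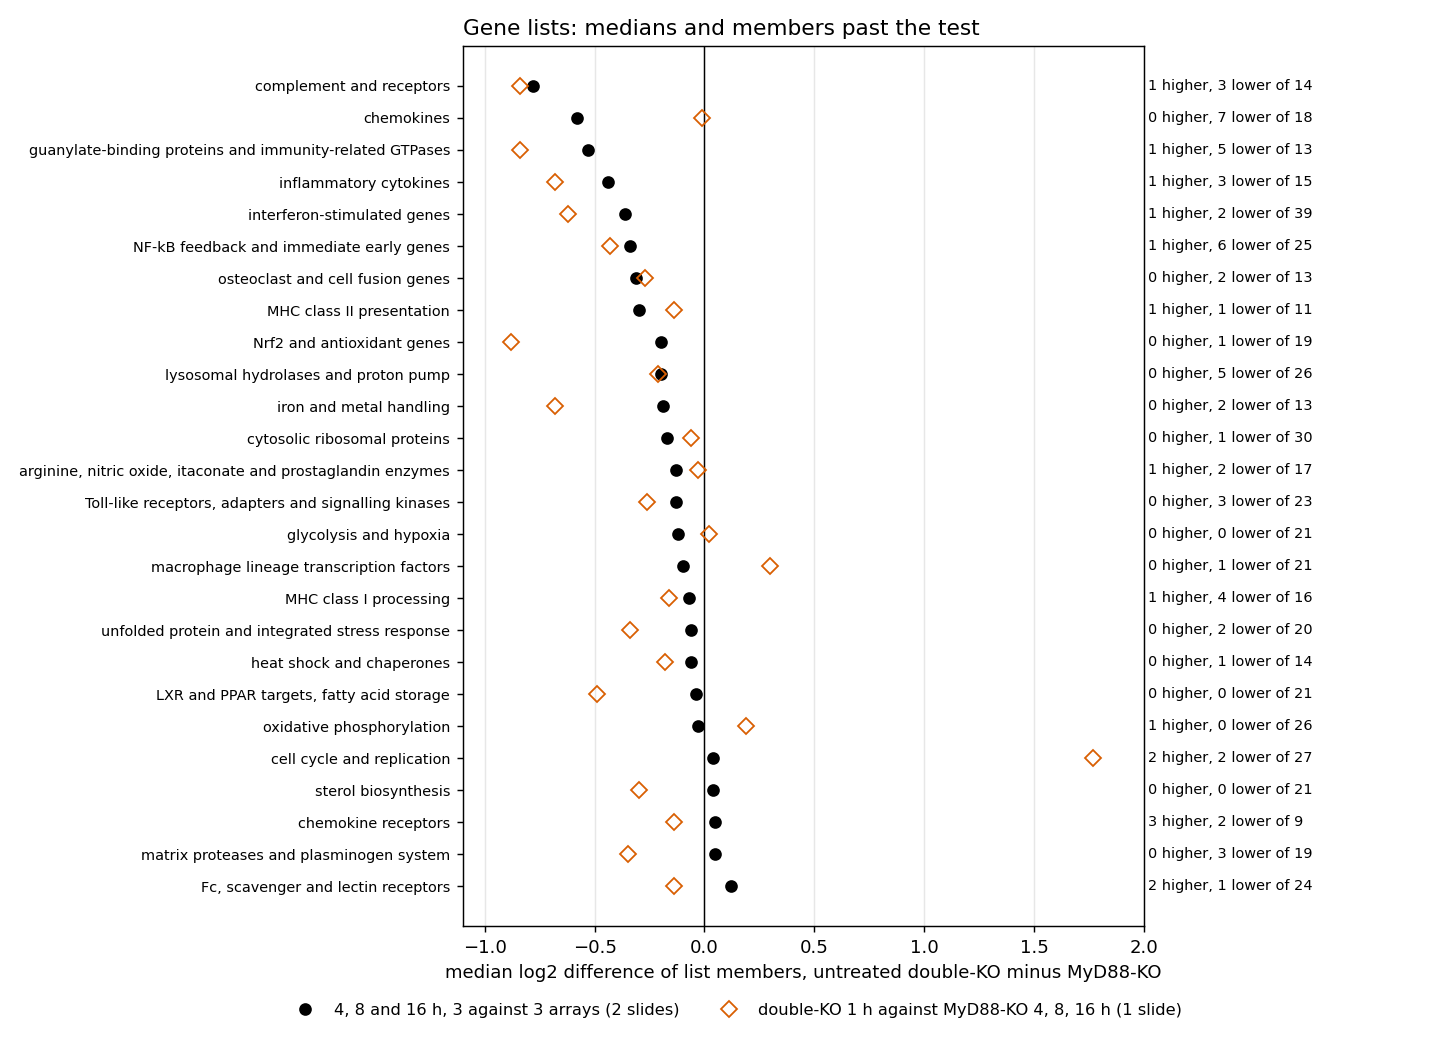
Median log2 difference (x axis, double-KO minus MyD88-KO) of the tested members of each gene list other than cell type markers (y axis). Black circles compare 3 with 3 arrays at 4, 8 and 16 h, diamonds the double-KO array of 1 h with the MyD88-KO arrays on its slide, and the text gives members past the test at matched times. Complement, chemokine, GTPase and cytokine lists have the lowest medians of the lists drawn, and the cell cycle list has 1.77 inside the slide against 0.04 at matched times.

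Cell cycle and replication genes had 2 higher and 2 lower of 27 (4 and 2 with the block) and a median of 0.04 at matched times. Inside the fourth slide, where 1 h is set against 4, 8 and 16 h, their median was 1.77 and 4 of the 27 read lower. The part of culture time in that value, which rests on 1 double-KO array, was not tested. Mcm6, a subunit of the replicative helicase, read 13.75, 13.37 and 14.32 in double-KO and 15.28, 15.57 and 15.80 in MyD88-KO. It was lower, at -1.74 ± 0.26 (adjusted p = 0.0092), and at -1.70 inside the fourth slide. Mcm3, another subunit, was higher by 1.29 on its brightest probe (1.77 inside the slide), and its other probe differed by 0.12.

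The largest higher value was that of Ctse, which encodes cathepsin E, an aspartic protease of the endosomal system. It read 15.96, 15.80 and 15.15 in double-KO, against 10.96, 10.49 and 9.81 in MyD88-KO. It was 37.1-fold higher (5.22 ± 0.33, adjusted p = 0.00078), with 5.75 inside the fourth slide. The medians of wild-type (9.97) and of the arrays labelled TRIF-KO (9.87) lay near MyD88-KO. Gm5067, a predicted gene, read 10.34, 10.38 and 11.30 in double-KO and 6.82, 6.64 and 6.75 in MyD88-KO, where no array was well above background. It was at least 14.7-fold higher (adjusted p = 0.00083), and 3.67 higher inside the fourth slide. Plxdc2, a transmembrane protein with a plexin domain, read 17.38, 17.86 and 17.23 in double-KO and 14.41, 15.09 and 14.69 in MyD88-KO (2.76 ± 0.22, adjusted p = 0.0014, 2.49 inside the fourth slide).

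Treml1 and Trem1 encode related receptors of the immunoglobulin superfamily and lie close to each other on chromosome 17, in the neighbourhood of Ticam1. Treml1 (48506365 to 48506424) read 14.62, 14.17 and 14.10 in double-KO and 12.01, 11.14 and 10.87 in MyD88-KO (2.95 ± 0.30, adjusted p = 0.0029). Trem1 (48385849 to 48385908) read 12.04, 11.81 and 11.54 in double-KO and 9.82, 9.19 and 9.10 in MyD88-KO (2.43 ± 0.22, adjusted p = 0.002). Both read higher inside the fourth slide, by 3.10 and 2.31. Tmeff1 (2.38), Tmem132a (2.46) and Gm4788 (2.87) were higher there as well, by 3.27, 2.10 and 1.13. These 5 and Ctse, Gm5067 and Plxdc2 are the 8 of the 14 largest higher genes that read higher by more than 1 log2 unit inside the slide. The other 6 read 0.10 to 0.50 higher there. With the arrays of 1 h side by side, on different slides, 7 of the 14 read higher and 7 lower in double-KO. Trem1 then read 11.68 in double-KO and 11.50 in MyD88-KO, and Gm4788 turned, at 9.62 in double-KO and 10.36 in MyD88-KO. The 6 genes of small within-slide values turned as well.

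Those 6 were Mthfsd, Oas1d, Nwd2, Elavl4, Gm6003 and Cd300a, and the probes of all but Gm6003 carry the G and T runs printed above. Mthfsd, a folate-related enzyme gene, read 12.19, 13.88 and 14.47 in double-KO, against 10.49, 10.48 and 10.51 in MyD88-KO. The double-KO array of 1 h, on the slide of the MyD88-KO arrays, read 10.81, and the MyD88-KO array of 1 h, on the third slide, 12.71. Its second probe, without such a repeat, read 10.96, 11.29 and 11.30 in double-KO and 10.66, 11.29 and 11.49 in MyD88-KO, a difference of 0.04. Elavl4, an RNA-binding protein gene of neurons, read 13.68, 14.63 and 14.62 in double-KO, 12.29 at 1 h, and 11.63, 11.66 and 12.06 in MyD88-KO. Its second probe read 9.61, 8.94 and 8.92 in double-KO and 6.47, 6.50 and 6.48 in MyD88-KO, not well above background there, and was at least 5.15-fold higher. On the double-KO arrays the LPS-treated RNA read a further 0.75 to 0.89 higher for the 5 genes with G and T runs.

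Probes with 8 alternating bases of G and T, TGTGTGTG or GTGTGTGT, were counted over all genes after these sequences had been seen. Such a repeat was held by 84 (7.54%) of the 1114 higher genes, by 1 (0.142%) of the 702 lower genes and by 238 (1.3%) of the genes tested. The median difference of the 238 was 0.35 at matched times and -0.02 inside the fourth slide. The median deviation of these probes from their mean over 19 arrays was 0.15, 0.30 and 0.29 on the double-KO arrays of 4, 8 and 16 h, and -0.24, -0.13 and -0.06 on the MyD88-KO arrays. The double-KO array of 2 h, on the fifth slide, stood at 0.19, and that of 1 h, on the fourth slide, at -0.14. Arrays of 1 slide also differed among themselves, from -0.14 to 0.25 on the first slide, -0.33 to 0.08 on the second and 0.03 to 0.31 on the third. The part of the slide was not tested, since 1 double-KO array lay on the fourth slide and its culture time differs too.

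The GC content of the probe went with the difference too. Of 250 genes whose probe has at most 30% GC, 92 (36.8%) were higher and 4 (1.6%) lower, with a median of 0.43 at matched times and -0.05 inside the fourth slide. Of 2727 genes over 50% and up to 60% GC, 65 (2.38%) were higher and 209 (7.66%) lower, with medians of -0.10 and -0.03. Centring each array within GC classes, an alternative chosen after seeing the data, left 898 higher and 658 lower genes, of which 812 and 493 were called in the same direction without it.

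**Figure D4:**
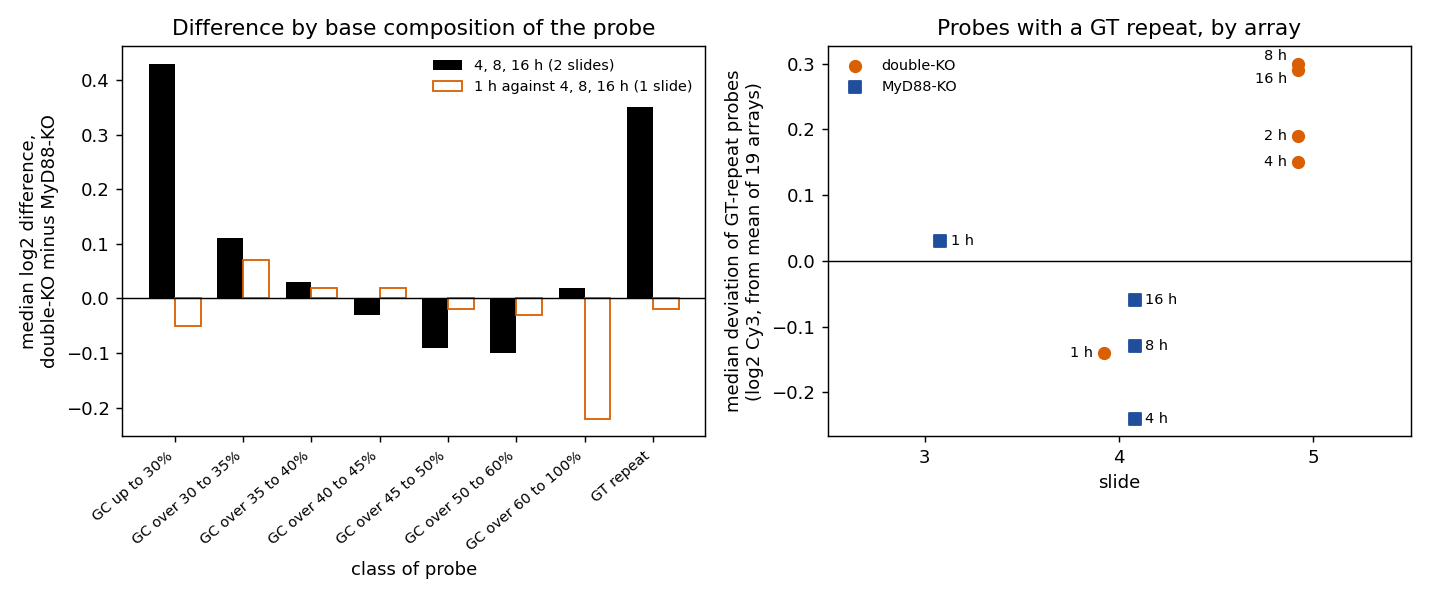
Left, median log2 difference (y axis, double-KO minus MyD88-KO) by GC content of the probe and for probes with a GT repeat, with black bars for 3 against 3 arrays on 2 slides and open bars for the fourth slide alone. Right, median deviation of GT-repeat probes (y axis, log2 Cy3) by slide, with 1 point per array, double-KO as circles and MyD88-KO as squares. The double-KO array of 1 h lies with the MyD88-KO arrays of its slide at -0.14, and the double-KO arrays of the fifth slide lie between 0.15 and 0.30.

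Markers of the labelled cell type were bright in both groups. Of 11 macrophage markers, all tested, 4 were lower and 0 higher, namely Cd14, Cd68 (-0.67), Spi1 and Tyrobp, and the median was -0.40, and -0.26 inside the fourth slide. After centring within GC classes 1 of them, Cd14, was lower, and with the scanner's processed signal Cd14, Cd68 and Tyrobp did not pass the test. A second probe for Cd68 differed by -0.07. Their mean level per array ran from 15.44 to 15.52 in double-KO and from 15.65 to 15.87 in MyD88-KO. Granulocyte and precursor markers, 16 of 17 tested, gave 5 lower and 0 higher (8 and 1 with the block), with a median of -0.55 and of -0.64 inside the fourth slide. Their mean level was 10.18 to 10.32 in double-KO and 10.79 to 10.86 in MyD88-KO. S100a9, a calcium-binding protein of granulocytes and monocytes, read 14.57, 15.33 and 15.06 in double-KO and 16.27, 16.61 and 16.56 in MyD88-KO (-1.49 ± 0.21, adjusted p = 0.0074, -1.77 inside the fourth slide). Its wild-type median was 14.78, so MyD88-KO was the genotype that stood high. Ltf (-1.69), S100a8 (-1.58) and Camp (-1.05) were lower as well. In bulk samples, fewer cells of a type and less RNA per cell cannot be told apart, and the part of such cells in the other results was not tested.

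Monocyte markers, 8 of 9 tested, moved both ways, with 4 lower and 2 higher, and 4 each with the block. Ly6c1, a member of this list, read 11.75, 11.55 and 12.08 in double-KO, against 14.39, 14.30 and 14.74 in MyD88-KO. It differed by -2.69 ± 0.18 (adjusted p = 0.00087), by -0.81 on a second probe and by -1.58 inside the fourth slide. Plac8 was lower too, at -2.27 ± 0.27, with -1.22 inside the fourth slide and -0.45 on a second probe. Ccr2 read 16.43, 16.38 and 15.36 in double-KO and 14.72, 14.68 and 14.06 in MyD88-KO. F13a1, the A subunit of coagulation factor XIII, was higher by 1.25 ± 0.23 (1.63 inside the slide). The mean LPS ratio on the MyD88-KO arrays was 1.96 for Ly6c1 and 2.05 for Plac8, but -1.42 for Ccr2 and -1.56 for F13a1. Of T and NK cell markers 8 of 14 were tested and 2 were lower, Lck (-0.85) and Thy1, which was not well above background in double-KO and was at least 1.64-fold lower. B cell (7 of 12 tested) and erythroid and megakaryocyte markers (6 of 12) had 0 calls. With the time point as a block, the B cell list had 1 higher and 2 lower, and the T and NK cell list 2 higher and 2 lower. Stromal markers (9 of 13) had 1 lower, Thy1. Dendritic cell markers (7 of 10) had 1 lower, Zbtb46 (-0.52, above background on 2 of the 3 arrays of double-KO), and mast cell, basophil and eosinophil markers (4 of 12) had 1 lower, Prss34, which was not well above background in double-KO and was at least 1.23-fold lower (2 lower with the block).

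The neighbourhoods of the targeted genes were read as well. The strain in which either allele was made is not given in the labels, and the part of flanking DNA from another strain was not tested. Of 160 tested genes within 10 Mb of the Ticam1 probe, 13 were higher and 11 lower (15%), against 9.91% of all genes. On chromosome 17 as a whole, which includes the window, the share was 14.8% of 978 genes. This was the largest share of any autosome, and the next was 11.5% on chromosome 13. The window was thus like its chromosome, and that chromosome stood above the others. Of 154 tested genes within 10 Mb of the Myd88 probe, 13 were higher and 10 lower (14.9%), against 9.39% of 969 genes on chromosome 9. Past the test in the Ticam1 window the largest values were those of Treml1, Trem1, Gm5093 (2.31, and 0.40 inside the fourth slide) and Foxp4, a forkhead factor. Foxp4 read 10.52, 10.83 and 10.83 in double-KO and 13.29, 12.91 and 12.04 in MyD88-KO (-2.02 ± 0.31, adjusted p = 0.01, -2.31 inside the fourth slide), and its other 2 probes differed by -1.74 and -0.22. In the Myd88 window they were Ccrl2, Ltf, Fbxw25 (1.63, and -0.22 inside the fourth slide) and Ccr2.

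Promoters of the lower genes were searched for letters of the sites that both branches use. RefSeq (GRCm38.p6) promoters of 300 bases, 250 before and 50 after the start, were matched by symbol for 11438 genes tested. A core of the interferon-stimulated response element, GAAANNGAA on either strand, was in the promoters of 57 (11.6%) of 493 lower genes and 40 (7.18%) of 557 higher genes. It was in 1037 (9.07%) of the 11438 genes and in 8.56% of all 32851 promoters in the table. Of 132 genes lower by at least 1 log2 unit, 20 (15.2%) held it. A kappaB core, GGGNNTTCC on either strand, was in 43 (8.72%) of the lower genes and 49 (8.8%) of the higher genes. It was in 929 (8.12%) of the genes tested, and in 5.82% of all promoters. Of the 132 genes lower by at least 1 log2 unit, 14 (10.6%) held the kappaB core. Genes higher by at least 1 log2 unit were not searched as a set. Among the 14 largest lower genes, 9 had a promoter in the table. Cxcl9 and Apol9b held both cores, Aoah only the first and Serpina3g only the second. The promoters of Cxcl9, Apol9b and Serpina3g are printed 5′ to 3′ with the matches in capitals, since they show where these letters stand in genes that were lower in double-KO.
Cxcl9 promoter: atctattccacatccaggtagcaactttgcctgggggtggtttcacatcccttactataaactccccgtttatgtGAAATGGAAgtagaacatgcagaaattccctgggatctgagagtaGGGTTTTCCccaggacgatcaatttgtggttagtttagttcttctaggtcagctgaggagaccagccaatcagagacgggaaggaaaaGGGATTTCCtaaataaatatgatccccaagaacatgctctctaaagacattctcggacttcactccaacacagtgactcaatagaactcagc
Apol9b promoter: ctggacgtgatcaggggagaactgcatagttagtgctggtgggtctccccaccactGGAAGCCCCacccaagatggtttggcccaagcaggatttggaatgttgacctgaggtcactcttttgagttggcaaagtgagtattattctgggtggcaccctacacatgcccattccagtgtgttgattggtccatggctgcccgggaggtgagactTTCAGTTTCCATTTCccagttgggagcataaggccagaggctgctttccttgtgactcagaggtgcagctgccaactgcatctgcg
Serpina3g promoter: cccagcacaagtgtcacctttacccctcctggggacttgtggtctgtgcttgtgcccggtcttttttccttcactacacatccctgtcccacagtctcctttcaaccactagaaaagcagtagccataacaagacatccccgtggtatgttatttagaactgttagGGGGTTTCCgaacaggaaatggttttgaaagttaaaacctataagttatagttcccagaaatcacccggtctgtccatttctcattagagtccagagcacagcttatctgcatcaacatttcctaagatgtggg
They lie at chr5:92328030-92328329 (minus strand), chr15:77728822-77729121 and chr12:104235897-104236196 (plus strand, all GRCm38.p6). Neighbouring matches can overlap. A match describes letters only and is not a measured site.

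Whether the genotypes diverged with time in serum-free medium was tested as a difference of slopes over log2 time, on the 5 double-KO and 4 MyD88-KO arrays with untreated RNA in Cy3. The early arrays lay apart from the later ones of their genotype, double-KO of 1 h on the fourth slide and MyD88-KO of 1 h on the third slide and another scan day, so the slopes hold the slide too. Past the adjusted threshold, 0 genes (0%) had a higher and 0 (0%) a lower slope in double-KO in limma's fit, with 3145 genes at an unadjusted p under 0.05. Leaving out the double-KO array of 2 h gave 271 genes with a higher and 24 with a lower slope, so the count of 0 rests on that array.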

How the data were processed

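Gene expression of untreated and LPS-treated macrophages was measured on two-colour Agilent arrays. The deposited files are output of the scanner software (Agilent Feature Extraction 10.10.1.1, per the file headers). They hold mean and background intensities of both channels before correction, and give probe positions in mm9. Groups, time points and dyes came from the labels.

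All 20 arrays were corrected with normexp (offset 50), normalized by loess within and by quantiles of the mean log2 intensity between arrays (limma 3.58.1, R 4.3.3, data.table version 1.17.8), so log2 levels were computed here from intensities that the authors deposited. A probe was kept if well above background in Cy3 on at least 3 of the 6 arrays (23684 probes), and the brightest stood for its gene. Of 963 X- or Y-linked probes that passed this filter all were left out. Of 18332 genes 34 had a missing value. The MyD88-KO array of 2 h has its dyes swapped and was not fitted. Names came from the RefSeq table by accession for 27317 probes, symbol for 3522 and synonym for 553, and those of the remaining 8037 are the array's own.

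Groups were compared with limma's moderated test and Benjamini-Hochberg adjustment over all genes. Time points pair the samples: same-time deviations from the group means correlated at 0.68, 0.36 and 0.72 for 4, 8 and 16 h. The fit without the block is the main one, and its blocked counts stand beside it. The text names the targeted genes and Tlr4, the 14 largest calls in each direction with separate groups and agreeing probes, up to 4 called members of each list (3 largest where none was called), and up to 4 called genes per flanking window. Some genes named by this rule are not reported here. The fit was tested on simulated data. The members and lists were chosen with earlier results of these data known. Alternatives covered background, normalization, filter, probe choice, variance, blocks, slide and left-out arrays.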

Additional observations from a re-analysis of the deposited data

How the results depend on the processing

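Counts of higher and lower genes stayed within 1.5 times of 1114 and 702 under 11 other settings of channel, background, normalization, filter, probe summary, variance model, sex-linked genes and base composition. They were 2641 and 2188 with the time point as a replicate block. A fit of 9 arrays with log2 time gave 545 and 688, and a fit of 19 arrays 780 and 847, so the share of higher against lower calls turned in both. The fourth slide alone gave 57 and 77, or 51 and 77 with GC classes, and slide as a fixed block over 9 arrays 135 and 123. The cause was not tested, but these fits inside slides rest on a single double-KO array. Leaving out 1 array at a time gave 380 to 974 higher and 171 to 626 lower genes. For the slope over time the same gave 0 to 271 higher and 0 to 24 lower.

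The median of a gene's probes turned Cxcl10 (-0.66) and Psme2 (-0.47). Inside the fourth slide Nfkb1 (-0.07), Ccl2 (0.38) and Fbxw25 (-0.22) turned, and with GC classes Nfkb1 (-0.14), Ccl2 (0.41), Fbxw25 (-0.19), H2-Oa (0.02) and Scarb1 (-0.06). With slide as a fixed block Gm6003 (-0.43), Nfkb1 (-0.06), Ccl2 (0.01), Aurkb (-0.13), Gm5093 (-0.96) and Fbxw25 (-0.28) turned. Of 122 named genes, of which 105 passed the test, 14 to 54 lost the call when 1 array was left out and 0 turned. Dim probes set only bounds.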
